A study of Rattus norvegicus with 6 samples.

Results

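Tubulins, the proteins that bind microtubules and the motors that walk on them were compared between rats of 9 and of 21 days of age, in primary cultures from the testis whose labels call them Sertoli cells. The genes were chosen by symbol alone: alpha-, beta- and gamma-tubulins and the gamma-tubulin complex, kinesins and kinesin light chains, cytoplasmic dynein chains, end-binding proteins, and 8 microtubule-associated proteins. Kif11, Kif20a, Kif23, Kif2c and Kif18b, 5 mitotic motors, were kept out by that rule. It found 79 genes among the 14506 with a probe set of 1 gene symbol. Kif14, Kif18a, Tubb4a and other family members without such a probe set are not analysed here.

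Each age had 3 arrays, 6 in all, numbered 1 to 3 in their titles. The labels give no strain, genotype or treatment that differs between the ages. Cells from decapsulated, digested testes of either age were plated in DMEM/F12 that held 10% fetal bovine serum, and after 24 hours of culture a change of medium served to purify the Sertoli cells once more. The labels do not state whether arrays of an age came from separate rats or cultures, so the tests measure the spread between these arrays, which may be technical. All values are log2 signals made by RMA, a method that sets no zero, so a difference of 1 is a 2-fold difference and levels of different genes are not amounts of transcript that can be set against each other.

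Microtubules are hollow polymers of alpha- and beta-tubulin that grow from templates of gamma-tubulin. Kinesins mostly carry cargo toward the growing end, cytoplasmic dynein carries it the other way, and a set of mitotic kinesins builds and works the spindle of dividing cells. In Sertoli cells microtubules run along the length of the tall cell, support its shape, and serve as tracks for vesicles and for the movement of attached spermatids. Sertoli cells divide in the young testis and stop as they mature.

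The arrays differed by number as well as by age. Over all genes, 50.8% of the variance lay on a first principal component that set the arrays numbered 3 (18.8 and 32.5) apart from the other 4 (between -21.2 and -8.91). Markers of peritubular myoid and smooth muscle cells, all 9 of them measured, had array means of 8.62 to 10.0 at 9 days and 8.0 to 9.87 at 21 days. In the arrays numbered 3 their mean was 1.32 (9 days) and 1.59 (21 days) higher than in the other arrays of the age. At 21 days 8 of the 9 had a lower mean, with a median of -0.32. The 15 Sertoli cell markers measured had array means of 4.69 to 4.86 at 9 days and 4.88 to 5.86 at 21 days, and 12 of them had a higher mean at 21 days, by 0.22 in the median. Array means were 9.06 to 9.55 for 6 fibroblast markers. Of these 6 genes 4 had a lower and 2 a higher mean at 21 days, by -0.12 in the median. Their differences ran from -0.73 (Pdgfra) to 1.03 (Thy1). Array means of 7 germ cell markers were 2.41 to 2.88, of 6 neuron markers 2.93 to 3.30 and of 8 macrophage markers 3.55 to 3.64. Those of 5 Leydig cell markers were 4.55 to 4.78, of 4 endothelial markers 3.38 to 3.73 and of 3 ciliated cell markers 3.23 to 3.43. They are given without ranking cell types by them. The medians of the arrays were between 3.78 and 3.87.

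Most of the 79 genes differed little between the ages. The mitotic kinesins had the largest median difference of the 14 roles and were lower at 21 days in every pair of arrays. No member passed an adjusted p under 0.05 over all genes in limma, where 0% of all genes passed, and each member's adjusted p was 1 when rounded to 3 digits. At an unadjusted p under 0.05 there were 2 members, Kifc1 and Kif21b, or 2.53%, against 2.97% of all genes. Of the 79 members 44 had a lower and 35 a higher mean at 21 days, and their median log2 difference was -0.016; of all genes 53.5% were lower, and the median was -0.0093. When each array was centred on its median, 53 members (67.1%) and 62.8% of all genes were lower. No member differed by 2-fold between the means, and 0.427% of all genes did. For 74 of the 79 the 95% confidence interval of the difference lay within 2-fold in either direction, as it did for 94.1% of all genes. The exceptions were Kif4a, Kif20b, Kif5b, Map1b and Tuba4a.

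**Figure D1:**
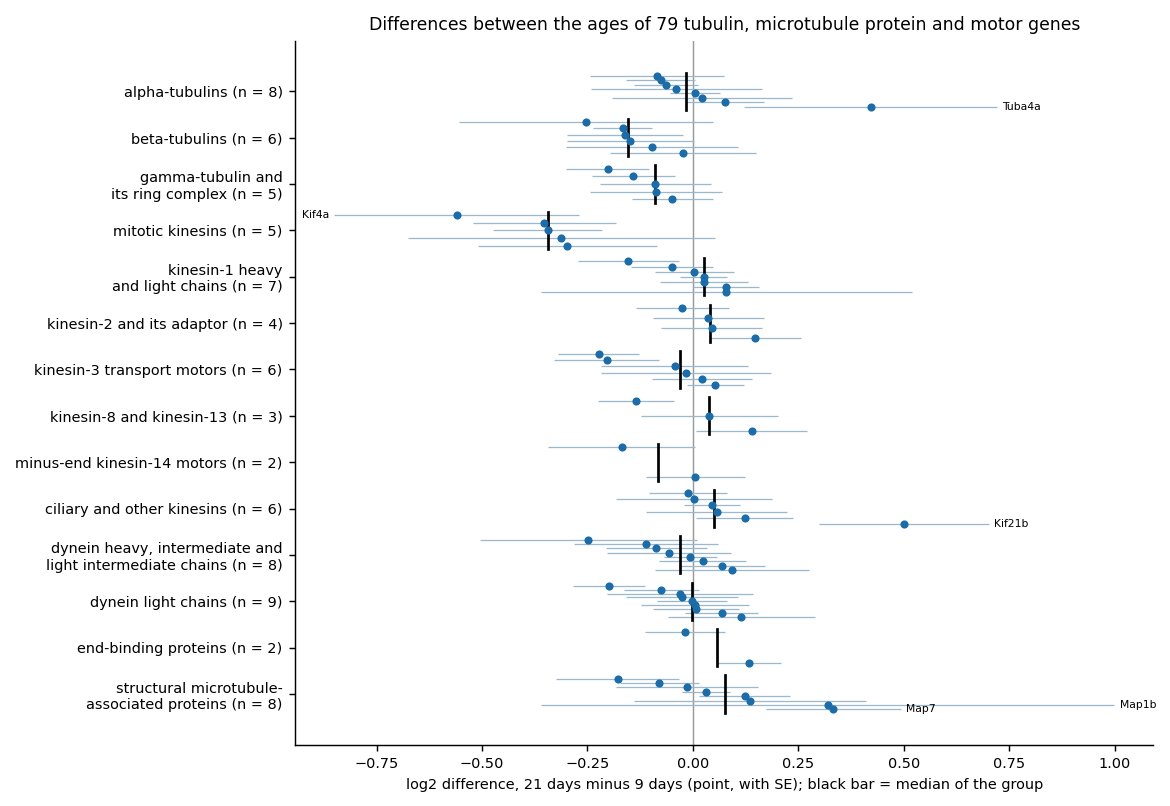
Log2 difference between the ages (21 days minus 9 days) of each of the 79 genes, with its SE from limma, grouped by role; the black bar is the median of the group. The mitotic kinesins have a median of -0.34, and the medians of the other groups lie between -0.15 and 0.077.

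The arrays of the same number were then set side by side, a pairing taken from these values and not stated in the labels. Of the 79 members 22 (27.8%) were lower at 21 days in all 3 pairs, against 14.4% of all genes, and 6 (7.59%) were higher in all 3, against 10.7%. Members and all genes are not alike in signal, since only 30.4% of members lay below the median of all genes. Equal values in a pair counted in neither direction, and at least 3 arrays shared a value for 5.06% of members but 17.1% of all genes. Among the 7253 genes of highest mean, 63.6% of members and 63.2% of all genes had a lower mean at 21 days. The 22 held all 5 mitotic kinesins, 5 of 6 beta-tubulins, 2 of 8 alpha-tubulins and 3 of 5 genes of the gamma-tubulin group. The 6 were Tuba4a, Kif21b, Kif3b, Kif6, Map1s and Dynlt3. With the number as a block in limma, again 0 members and 0% of all genes passed the adjusted threshold, and the lowest adjusted p of a member was 0.432. An unadjusted p under 0.05 in that fit was reached by 10 members (12.7%), against 7.73% of all genes. The 8 lower ones (10.1%, against 4.45% of all genes) were the 5 mitotic kinesins, Tubb2b, Tubgcp2 and Dynlt4, and the 2 higher ones (2.53%, against 3.29%) were Kif21b and Tuba4a. For 3 members (3.8%), Kifc1, Kif1c and Tubb4b, every older value lay below every younger one, as it did for 2.98% of all genes. No member was separated upward, against 2.74% of all genes, so that 3.8% of members and 5.72% of all genes had separate ages in either direction.

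The mitotic kinesins build the spindle, move chromosomes on it or help divide the cell. All 5 members placed in this role had lower means at 21 days. Kif2a and Kif2b, kinesin-13 motors like the mitotic Kif2c, were placed in another role and differed by 0.039 and -0.14. The median log2 difference of the 5 was -0.34, and their medians within the pairs numbered 1, 2 and 3 were -0.21, -0.42 and -0.58. Without both arrays numbered 3 all 5 were again lower, with a median of -0.31. Fewer dividing cells, of whichever type, and less of these transcripts per cell cannot be told apart in such bulk RNA. Most smooth muscle markers were lower at 21 days and most Sertoli cell markers higher, as given above. Their part in the kinesin values was not tested.

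Kif4a, a chromokinesin that shapes chromosomes and the central spindle, had the largest difference with all 6 arrays. In replicates 1, 2 and 3 its log2 values were 6.74, 6.19 and 6.95 in the younger cultures and 6.50, 5.60 and 6.09 in the older ones. Replicate 2 was the lowest at either age, and the ages overlapped although each pair was lower at 21 days. The means were 6.62 ± 0.39 and 6.06 ± 0.45 (SD, n = 3 each), a difference of -0.56 ± 0.29 (SE), or 0.678 of the younger level. Without 21-day-old replicate 2 it was -0.33, smaller than the -0.42 of Kifc1 in the same arrays.

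Kif15, which helps to hold the spindle poles apart, was at 5.91, 5.71 and 6.17 at 9 days and at 5.70, 5.29 and 5.74 at 21 days. Here too replicate 2 was the lowest at both ages, and the pairs differed by -0.21, -0.42 and -0.43. The difference of the means was -0.35 ± 0.17 (SE), or 0.783 of the younger level. It was -0.21 without 21-day-old replicate 2 and -0.23 without 9-day-old replicate 3.

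Kifc1, a minus-end motor that focuses spindle poles, was the mitotic kinesin whose ages did not overlap. It was at 6.27, 6.10 and 6.23 at 9 days and at 5.96, 6.01 and 5.59 at 21 days. The lowest value by far was that of 21-day-old replicate 3, and without both arrays numbered 3 the difference of -0.34 ± 0.13 (SE) was -0.20. It was -0.21 without that 1 array.

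Kif22, a chromokinesin that pushes chromosome arms, showed the same lean on 21-day-old replicate 3. Its values of 6.73, 6.41 and 6.39 in the younger cultures stood against 6.57, 6.26 and 5.81 in the older ones. The difference of -0.30 ± 0.21 (SE) was -0.15 without both arrays numbered 3, -0.095 without 21-day-old replicate 3, -0.19 without 9-day-old replicate 1 and -0.48 without 21-day-old replicate 1. Kif20b, which acts in the last steps of cell division, was at 5.38, 4.61 and 5.18 at 9 days and at 5.30, 4.05 and 4.88 at 21 days. Replicate 2 was lowest at both ages, and the difference of -0.31 ± 0.36 (SE) was 0.034 without 21-day-old replicate 2, -0.15 without 9-day-old replicate 1, -0.54 without 9-day-old replicate 2 and -0.59 without 21-day-old replicate 1.

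The 5 motors kept out of the rule were lower at 21 days as well, each in all 3 pairs; the median of their log2 differences was -0.47, with a range from -0.53 (Kif18b) to -0.30 (Kif20a). None passed the adjusted threshold. The 8 measured markers of dividing cells, which hold none of these kinesins, were all lower too, with a median of -0.48. Their array means were 7.58 to 8.08 at 9 days and 7.14 to 7.70 at 21 days. Their part in the lower kinesin values was not tested.

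**Figure D2:**
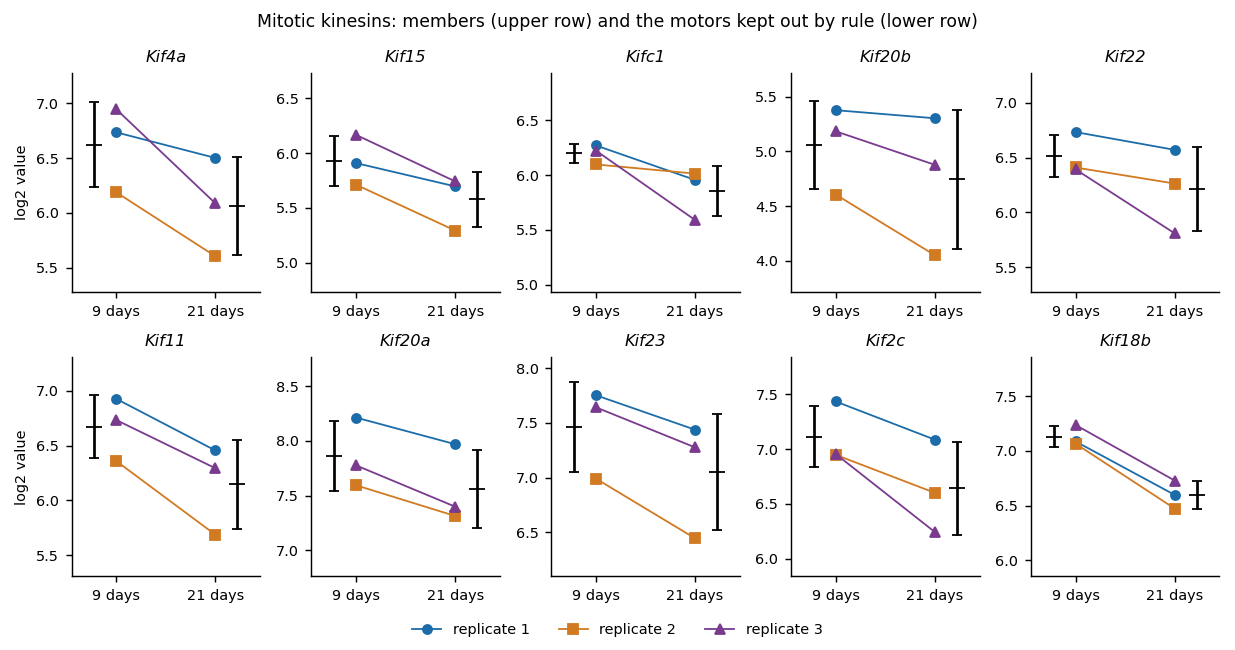
Log2 value of 10 mitotic kinesins in each array, with lines that join arrays of the same number and black bars for the mean and SD (n = 3) of each age; every panel spans 2 log2 units. All 10 genes are lower at 21 days in each of the 3 pairs, and replicate 2 is the lowest array at both ages for Kif4a, Kif15, Kif20b, Kif11, Kif18b, Kif20a and Kif23.

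Promoters of the 5 mitotic kinesins among the members are shown, all of which were lower at 21 days in each pair of arrays. The same held for other members and for the 5 motors kept out of the rule. Windows of those 5 motors were searched as well but are not printed, and their matches are counted below. RefSeq windows of 300 bases (assembly GRCr8), 250 before the annotated start and 50 after it, were found for 65 of the 79 members. Dync2h1, Dynll2, Dynlrb1, Dynlt3, Kif13b, Kif19, Kif21b, Kif2b, Kif5a, Kifc2, Kifc3, Map4, Map6 and Mapt had none in the table. Capitals mark 2 motifs on either strand: TTTGAA, the core of the CHR element of cell cycle genes, which reads TTCAAA where it lies on the opposite strand, and CCAAT, the box bound by the factor NF-Y, which then reads ATTGG. Tubb4b is added as the tubulin whose ages did not overlap.
Kif4a, chrX:69761633-69761932, plus strand: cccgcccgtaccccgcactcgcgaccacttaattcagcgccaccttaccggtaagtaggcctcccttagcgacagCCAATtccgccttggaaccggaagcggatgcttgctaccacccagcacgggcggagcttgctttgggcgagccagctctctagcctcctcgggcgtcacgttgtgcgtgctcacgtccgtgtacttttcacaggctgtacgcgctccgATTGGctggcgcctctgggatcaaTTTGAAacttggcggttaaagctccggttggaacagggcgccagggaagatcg
Kif15, chr8:131479154-131479453, plus strand: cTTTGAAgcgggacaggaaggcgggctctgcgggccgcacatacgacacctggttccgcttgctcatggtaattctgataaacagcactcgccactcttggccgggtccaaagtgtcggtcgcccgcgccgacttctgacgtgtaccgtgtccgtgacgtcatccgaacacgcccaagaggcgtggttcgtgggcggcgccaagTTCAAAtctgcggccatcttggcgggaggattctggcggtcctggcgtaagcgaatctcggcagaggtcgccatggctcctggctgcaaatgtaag
Kifc1, chr20:5000679-5000978, plus strand: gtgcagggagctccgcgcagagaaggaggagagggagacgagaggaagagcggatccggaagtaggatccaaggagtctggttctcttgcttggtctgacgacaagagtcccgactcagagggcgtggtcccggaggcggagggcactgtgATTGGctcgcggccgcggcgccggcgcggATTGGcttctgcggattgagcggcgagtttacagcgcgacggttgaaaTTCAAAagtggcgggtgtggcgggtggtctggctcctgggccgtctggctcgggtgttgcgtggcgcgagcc
Kif20b, chr1:241840766-241841065, plus strand: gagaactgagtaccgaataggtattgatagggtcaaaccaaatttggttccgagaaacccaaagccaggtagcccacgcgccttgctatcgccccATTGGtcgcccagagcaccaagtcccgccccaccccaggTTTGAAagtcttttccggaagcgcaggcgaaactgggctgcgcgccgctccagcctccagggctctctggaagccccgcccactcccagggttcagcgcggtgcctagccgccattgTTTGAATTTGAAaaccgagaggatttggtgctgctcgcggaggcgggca
Kif22, chr1:191080829-191081128, minus strand: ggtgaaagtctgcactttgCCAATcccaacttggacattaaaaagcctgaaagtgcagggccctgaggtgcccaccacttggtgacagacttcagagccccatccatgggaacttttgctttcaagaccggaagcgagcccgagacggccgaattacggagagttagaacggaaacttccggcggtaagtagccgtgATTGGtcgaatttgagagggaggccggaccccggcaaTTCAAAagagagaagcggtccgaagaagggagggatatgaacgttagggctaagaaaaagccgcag
Tubb4b, chr3:28438406-28438705, minus strand: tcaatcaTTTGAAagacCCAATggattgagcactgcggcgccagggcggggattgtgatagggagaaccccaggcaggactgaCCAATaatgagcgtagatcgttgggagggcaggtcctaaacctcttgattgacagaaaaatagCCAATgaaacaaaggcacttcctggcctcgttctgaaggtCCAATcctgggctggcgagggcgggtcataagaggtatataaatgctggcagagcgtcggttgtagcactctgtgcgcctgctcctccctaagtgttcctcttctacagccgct

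TTTGAA was present in the windows of all 5 mitotic kinesins, whereas 19.4% of the 27457 genes with a window had it. It lay next to the start in 4 of them, at position -3 in Kif4a, -22 in Kifc1, -16 in Kif22, and 2 and 8 in Kif20b, counting the base before the start as -1. Kif20b had a further match at -116, and Kif15 had matches at -46 and -249. CCAAT was present in 4 of the 5, in 5 of 6 beta-tubulins, and in 39.6% of all genes. Over all 65 members TTTGAA was found in 13 (20%) and CCAAT in 34 (52.3%). Of the 5 motors kept out of the rule, which were lower as well, only Kif23 had TTTGAA and 3 had CCAAT. Tubb4b had 4 CCAAT boxes, the one nearest to the start at -64, and TTTGAA at -243.

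The other letter strings searched were TTCGAA, GGCGGGAA, TTTGGCGC and TTTCCCGC, of cell cycle genes, and GTTGC, of genes of cilia. The first 4 were found in no window of the 5 mitotic kinesins and in 1.89%, 2.15%, 0.554% and 1.09% of all genes. GTTGC was found in 1 of the 5, in 40% of the members and in 36.9% of all genes. GGCGGGAA and TTTCCCGC can share letters, whereas no TTTGAA match overlapped a CCAAT match in the windows shown. The strings were chosen after the values were seen. A match describes the letters of the window, and no binding was measured.

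**Figure D3:**
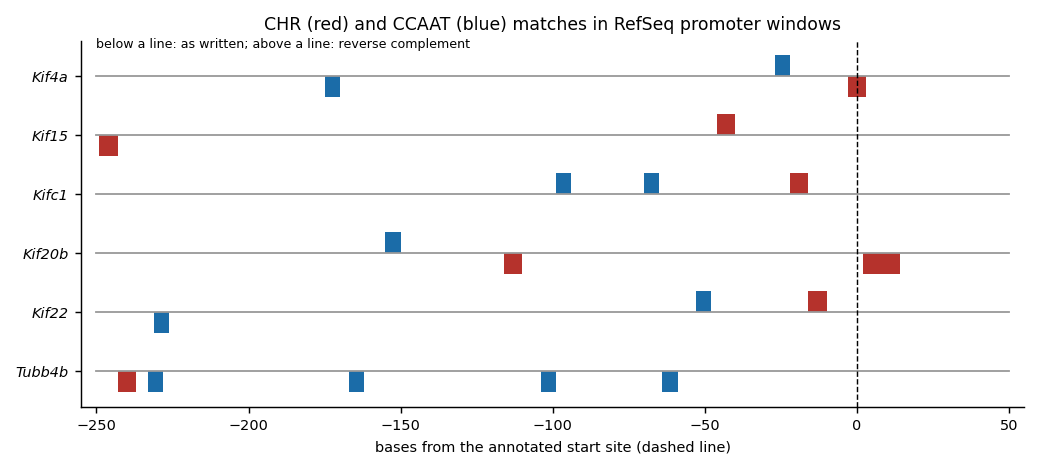
Positions of the CHR core (red) and of the CCAAT box (blue) in the RefSeq promoter windows of the 5 mitotic kinesins and of Tubb4b, in bases from the annotated start site. Matches as written lie below the line and reverse complements above it; the CHR core lies within 25 bases of the start in Kif4a, Kifc1, Kif20b and Kif22.

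Beta-tubulins, the partner in the tubulin dimer whose isotypes differ most between tissues, had lower means at 21 days for all 6 genes. The median log2 difference was small, -0.15, and 4 of the 6 were lower without 9-day-old replicate 3 or 21-day-old replicate 2, or 5 without 21-day-old replicate 1 or after quantile normalization. Their median was -0.040 without 9-day-old replicate 3, -0.069 without 21-day-old replicate 2 and -0.25 without 21-day-old replicate 3. Without both arrays numbered 3 all 6 were lower. The smooth muscle markers were lower at 21 days as well, and the Sertoli cell markers higher, as given above; their part in the beta-tubulin values was not tested. Tubb4b, a broadly expressed isotype that also serves cilia and flagella, was at 9.10, 9.19 and 9.19 at 9 days and at 8.97, 8.94 and 9.09 at 21 days. All its older values lay below all younger ones, yet by little: the difference was -0.17 ± 0.07 (SE), with a 95% interval from -0.34 to 0.007.

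Tubb5, the main beta-tubulin of dividing cells, was at 11.20, 11.28 and 11.59 at 9 days and at 11.14, 11.04 and 11.44 at 21 days, a difference of -0.15 ± 0.15 (SE). Tubb6, a widely expressed isotype, was at 9.97, 9.98 and 10.32 and then at 9.88, 9.78 and 10.12, a difference of -0.16 ± 0.14. In both genes the number 3 array was the highest of its age, each pair was lower at 21 days, and the ages overlapped. Without 9-day-old replicate 3 the differences were -0.033 (Tubb5) and -0.047 (Tubb6), without 21-day-old replicate 2 they were -0.063 and -0.087, and without 21-day-old replicate 3 they were -0.27 and -0.26. Without 9-day-old replicate 1 that of Tubb5 was -0.23.

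The isotypes best known from neurons followed the array number more than the age. Tubb3, which Sertoli cells also make, was at 8.20, 8.14 and 8.70 at 9 days and at 8.17, 8.02 and 8.55 at 21 days, a difference of -0.10 ± 0.20 (SE) that turned to 0.080 without 9-day-old replicate 3 and to 0.016 without 21-day-old replicate 2. Tubb2b was at 5.78, 5.60 and 6.26 and then at 5.39, 5.27 and 6.22, a difference of -0.25 ± 0.30 that ran from -0.55 without 21-day-old replicate 3 to -0.064 without 9-day-old replicate 3. Tubb2a differed by -0.024 ± 0.17, and its sign turned without any of 3 single arrays. Replicate 3 was the highest array of its age in all 3 genes.

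The common alpha-tubulin isotypes Tuba1a, Tuba1b and Tuba1c each differed by less than 0.1 and by less than their SE. Tuba1b was at 11.99, 12.01 and 12.18 at 9 days and at 11.94, 11.93 and 12.08 at 21 days, a difference of -0.076 ± 0.082 (SE) with a 95% interval from -0.28 to 0.13, and by -0.018 without 9-day-old replicate 3. Tuba1c differed by -0.064 ± 0.076, with an interval from -0.25 to 0.12, or by -0.014 without 21-day-old replicate 1, and Tuba1a by -0.085 ± 0.16, a sign that turned without 9-day-old replicate 3 or 21-day-old replicate 2. These genes are close relatives whose sequences were not compared here, so whether the probes separate them is unknown. A second probe set of Tuba1b, the one member with more than 1, differed by -0.13.

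Tuba4a went the other way. It was at 6.45, 6.07 and 5.57 at 9 days and at 6.92, 6.08 and 6.36 at 21 days. The pairs numbered 1 and 3 differed by 0.47 and 0.78, the pair numbered 2 by 0.010, and the ages overlapped. The difference of the means was 0.42 ± 0.30 (SE), or 1.34-fold, and 0.24 without both arrays numbered 3. It was 0.19 without either 9-day-old replicate 3 or 21-day-old replicate 1, and 0.63 without 9-day-old replicate 1. The tissue-restricted genes Tuba3a, Tuba3b, Tuba8 and Tubal3 lay below the median of all genes in mean signal, with differences between -0.039 and 0.075. Tuba8 itself differed by 0.075 ± 0.093. Whether such low signals exceed background is unknown, so they do not show that a level stayed the same.

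**Figure D4:**
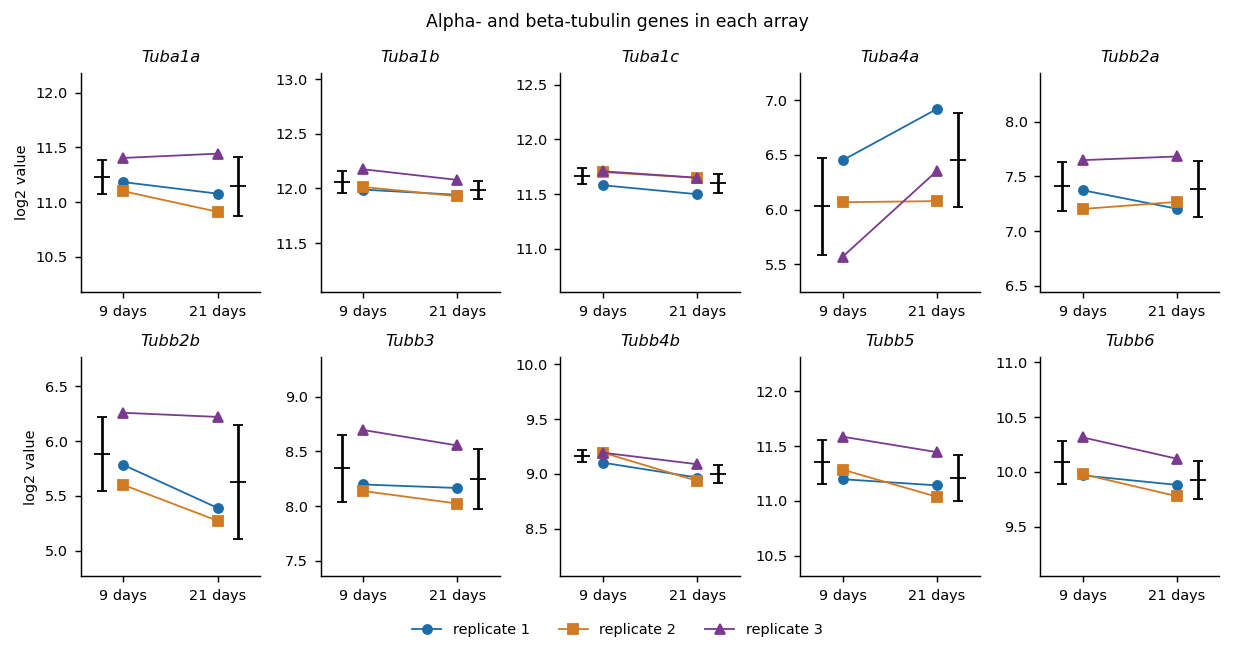
Log2 value of 4 alpha- and 6 beta-tubulin genes in each array, with lines that join arrays of the same number and black bars for the mean and SD (n = 3) of each age; every panel spans 2 log2 units. Tuba1b and Tuba1c hardly differ between the ages, Tuba4a is higher at 21 days, and replicate 3 is the highest array at both ages for Tubb2a, Tubb2b, Tubb3, Tubb5 and Tubb6.

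Gamma-tubulin and its ring complex, which start new microtubules, had lower means at 21 days in all 5 genes, by -0.089 in the median. The count was 4 when any of 4 single arrays was left out. Tubgcp2, a core subunit of the ring, was at 6.91, 7.12 and 6.96 at 9 days and at 6.82, 6.91 and 6.65 at 21 days. The ages met at 6.91, and the difference was -0.20 ± 0.10 (SE), or -0.13 without 21-day-old replicate 3. Tubg1, gamma-tubulin itself, differed by -0.089 ± 0.13, or by 0.019 without 21-day-old replicate 1.

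Transport kinesins did not share a direction. Of the 6 kinesin-3 motors 4 were lower, of the 7 kinesin-1 chains 2, and of the 4 kinesin-2 genes 1. Kif1c, a kinesin-3 that carries vesicles, was at 7.44, 7.42 and 7.44 at 9 days and at 7.36, 7.25 and 7.03 at 21 days. The ages did not overlap, and the difference was -0.22 ± 0.10 (SE), or -0.13 without both arrays numbered 3 or without 21-day-old replicate 3 alone. Kif13a, a kinesin-3 of endosomes, differed by -0.20 ± 0.12, with pairs at -0.013, -0.37 and -0.23, and by -0.084 without 21-day-old replicate 2. Kif1b, which carries mitochondria and vesicles, differed by 0.022 ± 0.12.

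Kif5b, the widely expressed heavy chain of kinesin-1, was among the genes that scattered most. It was at 8.65, 8.39 and 9.23 at 9 days and at 8.80, 8.05 and 9.66 at 21 days. Replicate 3 was highest and replicate 2 lowest at both ages. The difference of 0.079 ± 0.44 (SE) turned to -0.33 without 21-day-old replicate 3, and its 95% interval ran from -1.004 to 1.16. The light chain gene Klc1 differed by 0.003 ± 0.094. In kinesin-2, the motor of transport within cilia, Kif3b was at 5.47, 5.29 and 5.47 and then at 5.55, 5.40 and 5.73, a difference of 0.15 ± 0.11, or 0.063 without 21-day-old replicate 3, and Kif3a differed by 0.044 ± 0.12.

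Kif21b, a kinesin-4 that restrains microtubule growth, had the largest difference upward. It was at 4.66, 4.42 and 4.53 at 9 days and at 5.44, 5.02 and 4.66 at 21 days. The number 3 array was the lowest of the older age and met the highest younger value. The difference was 0.50 ± 0.20 (SE), or 1.41-fold, and 0.68 without both arrays numbered 3. It was 0.30 without 21-day-old replicate 1. The motors of motile cilia differed less: Kif6 by 0.12 ± 0.12, or 0.035 without 21-day-old replicate 3, and Kif19 by 0.14 ± 0.13, the latter through 21-day-old replicate 2, without which it was -0.0071. Their signals lay below the median of all genes. In the remaining groups the kinesins Kifc2 and Kifc3, Kif2a and Kif2b, and Kif12, Kif26b, Kif27 and the kinesin-binding protein gene Kifbp had differences between -0.17 and 0.056.

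Cytoplasmic dynein showed little difference with age. Of its 8 heavy, intermediate and light intermediate chains 5 had lower means, and the median difference was -0.031. Dync1h1, the motor chain, was at 8.44, 8.43 and 8.99 at 9 days and at 8.39, 7.94 and 8.78 at 21 days. Each pair was lower at 21 days, the number 3 array was the highest of each age, and the difference was -0.25 ± 0.26 (SE). It was -0.034 without 21-day-old replicate 2, -0.065 without 9-day-old replicate 3 and -0.45 without 21-day-old replicate 3. Dync1i2, an intermediate chain that binds cargo adaptors, differed by -0.087 ± 0.12, or by 0.028 without 21-day-old replicate 2.

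Of the 9 light chains, small subunits shared between dynein and other complexes, 5 were lower, with a median of -0.0015. Dynll1 was at 11.05, 10.94 and 10.96 at 9 days and at 11.00, 10.85 and 11.09 at 21 days. With a difference of -0.0015 ± 0.083 (SE) and a 95% interval from -0.21 to 0.20, its ages overlapped wholly. Dynlt1 differed by -0.075 ± 0.089, or by -0.011 without 21-day-old replicate 3.

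The proteins that bind along or at the ends of microtubules did not share a direction, and none passed the adjusted threshold. Of the 8 structural microtubule-associated proteins 5 had higher means at 21 days; the median difference of the 8 was 0.077. Map7, which recruits kinesin-1 to microtubules and is needed for microtubule order in Sertoli cells, was at 3.78, 3.81 and 3.43 at 9 days and at 3.74, 4.18 and 4.09 at 21 days. 21-day-old replicate 1 lay among the younger values, and the difference was 0.33 ± 0.16 (SE), or 0.16 without both arrays numbered 3 and 0.21 without 9-day-old replicate 3. The signals of Map7, and of Map2 and Mapt below, lay below the median of all genes. Map4, the common microtubule stabiliser outside neurons, was at 8.94, 8.93 and 9.30 and then at 8.87, 8.70 and 9.07. Each of its pairs was lower at 21 days, and the means differed by -0.18 ± 0.15. The values were -0.055 without 9-day-old replicate 3, -0.088 without 21-day-old replicate 2 and -0.27 without 21-day-old replicate 3.

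Map1b, a stabiliser best known from growing axons, had the largest SE of all 79 members. It was at 7.56, 7.05 and 8.42 at 9 days and at 7.47, 7.10 and 9.41 at 21 days. Only the number 3 arrays stood out, and the difference of 0.32 ± 0.68 (SE) was -0.39 without 21-day-old replicate 3 and -0.017 without both arrays numbered 3. Map2, a relative of tau and Map4 best known from dendrites, was at 4.03, 3.94 and 4.77 and then at 4.21, 4.17 and 4.77, a difference of 0.14 ± 0.27. Map1s, a relative of Map1b, differed by 0.12 ± 0.11, with each pair higher at 21 days, or by 0.033 without 21-day-old replicate 2, and Mapt, the axonal protein tau, by 0.031 ± 0.057. The end-binding proteins, which track growing ends, gave -0.018 ± 0.095 for Mapre1 and 0.13 ± 0.08 for Mapre3, the latter 0.088 without 21-day-old replicate 1.

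Several members differed more by array number than by age. In 9 members (11.4%) the number 3 array exceeded the mean of the other 2 by over 0.3 at both ages, as it did in 6.55% of all genes: Map1b, Kif5b, Tubb2b, Dync1h1, Map2, Tubb3, Tubb2a, Kifc3 and Tubb5. For Map1b the excess was 1.11 at 9 days and 2.12 at 21 days, and for Kif5b it was 0.71 and 1.23. Dynlrb1, a dynein light chain, was the 1 member (1.27%) lower by over 0.3 at both ages, against 5.91% of all genes. The smooth muscle markers were higher in the same arrays by the amounts given above, and their part in these values was not tested. The neuron markers were 0.061 (9 days) and 0.34 (21 days) higher there, and the Sertoli cell markers 0.054 and 0.78 higher. The fibroblast markers were 0.13 and 0.49 lower there. The part of these other marker sets was not tested either.

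**Figure D5:**
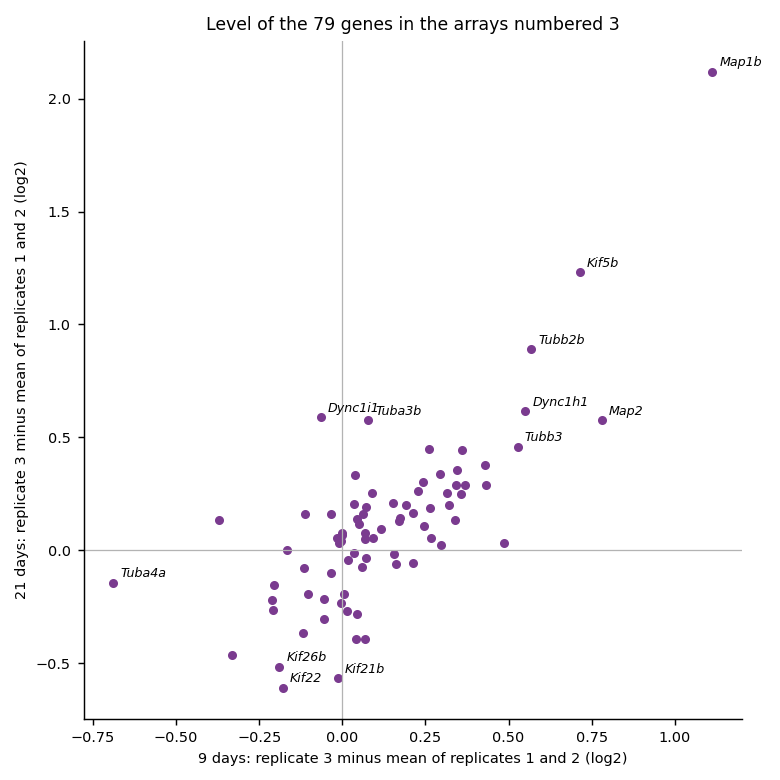
Excess of the number 3 array over the mean of the arrays numbered 1 and 2, at 9 days (horizontal) and at 21 days (vertical), for each of the 79 genes on the log2 scale; genes with an excess over 0.5 in size at either age are named. Map1b (1.11 and 2.12) lies farthest up and to the right, Kif5b (0.71 and 1.23) is the next highest, and Map2 (0.78 and 0.58) is the next to the right.

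Other genes of the microtubule system, from lists chosen for their function, differed as little. Of 21 dynactin and dynein adaptor genes 9 were higher and 12 lower; their median log2 difference was -0.032, with extremes of -0.39 (Nde1, which acts with dynein in mitosis) and 0.13 (Ndel1). Of 20 severing and end-binding genes 7 were higher and 13 lower, for a median of -0.043, with extremes of -0.41 (Tacc3, a spindle protein) and 0.18 (Tacc1). Tubulin folding and modifying genes gave 11 higher and 11 lower; the median was -0.016, with a range from -0.16 (Vash2) to 0.12 (Ttll13). Of 23 other microtubule-binding genes 10 were higher and 13 lower; their median was -0.024, and they ran from -0.33 (Mid1) to 0.36 (Dcx). No gene of these lists passed the adjusted threshold. The stathmins, which bind free tubulin, were the exception in size: Stmn2 differed by 3.80 and Stmn1 by -0.53 on the log2 scale, with 0 of 4 past the threshold.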

How the data were processed

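Total RNA of 6 samples, 3 per age, was measured on Affymetrix whole-transcript arrays. The submitters' processing notes name RMA (background correction, quantile normalization, summary per probe set) for the deposited log2 values, with no version. Its settings were not given in any source used here. GEO lists the series under binding arrays, whereas the labels describe expression. Of 29214 probe sets 15310 had exactly 1 gene symbol, 323 had several and 13581 were unnamed here; Entrez numbers of 15279 matched RefSeq (GRCr8), which changed 0 symbols. The probe set with the highest mean was used per gene. No detection calls or scan dates were used; the number of arrays limits precision, with a median SE of 0.12 for members.

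The ages were compared with limma 3.58.1 in R 4.3.3 (lmFit, eBayes), with Benjamini-Hochberg adjustment over all 14506 genes and no covariate. The fit was also run on simulated data with the same spread for every gene and no effect of array number. These arrays differ from that in both respects, so the simulation cannot show how well the fit does here. Deviations from the age means correlated between arrays of equal number (r = 0.439, 0.549 and 0.673 across genes, each above 0.1). Between unequal numbers r ran from -0.552 to 0.165, the latter for 9-day-old number 1 with 21-day-old number 2. On these values the numbers, which come from the titles, were taken to pair arrays, and the block is an alternative. The pairing thus rests on the same values that are compared. The members, lists, roles and the named-gene rule (the 10 largest differences each way, non-overlapping members, and a list of principal members per role) were chosen with earlier results of these data known, and motifs after these values were seen. A rise or fall is named only past the threshold. Figures were drawn with matplotlib 3.10.9.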

Additional observations from a re-analysis of the deposited data

How the results depend on the processing

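No gene and no member passed the adjusted threshold with all 6 arrays or under any of the 15 alternatives in limma. With all 6 arrays 431 genes (2 members) had an unadjusted p under 0.05, and 189 to 1122 genes (0 to 10 members) did under the alternatives. The replicate block gave the 1122 genes and 10 members and changed no call. The median log2 difference of the members, -0.016, was -0.049 with only the 7253 genes of highest mean, -0.041 with centred arrays, -0.039 without both arrays numbered 3, and between -0.055 and -0.0037 with 1 array left out. That of all genes, -0.0093, was -0.042 with the 7253 genes and -0.035 with centred arrays. It was -0.0063 without both arrays numbered 3, and between -0.012 and -0.0020 with 1 array left out. The median of the mitotic kinesins, -0.34, stayed between -0.48 and -0.30, and their count of lower genes was 4 or 5; that of the beta-tubulins was 4 to 6. Both counts were added as alternatives after the data were seen.

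Of the 40 named members 24 kept their sign throughout. Centred arrays turned Kif1b (-0.0038) and Klc1 (-0.023); quantile normalization turned Dynll1 (0.017), Mapre1 (0.0055), Mapt (-0.0030) and Tubb2a (0.013); leaving out both arrays numbered 3 turned Kif5b (-0.093) and Map1b (-0.017). With 1 array left out the signs of 15 named members turned, with the ranges -0.055 to 0.063 (Dynll1), -0.048 to 0.14 (Kif1b), -0.044 to 0.092 (Klc1), -0.029 to 0.15 (Kif3a), -0.33 to 0.47 (Kif5b), -0.057 to 0.40 (Map2), -0.23 to 0.031 (Tuba1a), -0.17 to 0.096 (Tubb2a), -0.25 to 0.080 (Tubb3), -0.18 to 0.019 (Tubg1), -0.16 to 0.028 (Dync1i2), -0.0071 to 0.22 (Kif19), -0.59 to 0.034 (Kif20b), -0.087 to 0.070 (Mapre1) and -0.39 to 0.76 (Map1b). The cause was not tested.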

Other observations

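Some genes had exactly the same value on several arrays. At least 3 of the 6 arrays shared 1 value for 2474 genes (17.1%) and for 4 members (5.06%): Mapt, Tubal3, Mapre3 and Kifbp. Mapre3 was at 5.76 on 3 arrays, and its SD at 9 days was 0.0055.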
